A study of Mus musculus with 10 samples.

Results

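The genes described here are 44 genes of mitosis, the spindle and the kinetochore, taken by gene symbol from a table of 24421 genes. All 44 symbols were found in the table. The table holds read counts from 10 mouse libraries, 5 of normal lung from untreated animals and 5 of lung squamous cell carcinoma (SCC) from animals given NTCU, a nitrosourea carcinogen. All animals were wild type NIH Swiss mice, and the labels give neither ages nor the time after NTCU. Regions were cut by laser capture from fixed, paraffin-embedded sections, so a captured region can hold several cell types, and RNA from such material is fragmented. No label says which animal a library came from, so p-values measure the spread between libraries, which may in part be technical, and they are too small if regions share an animal.

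Mitosis begins when Cdk1 bound to cyclins A and B phosphorylates its targets, with the kinases Plk1, Aurora A and Aurora B acting beside it. Condensins and topoisomerase II compact the chromosomes, kinetochores attach them to spindle microtubules, and the spindle checkpoint holds back the anaphase-promoting complex until each kinetochore is attached. The complex, with Cdc20 and Ube2c, then marks cyclin B and securin for destruction, and the central spindle guides cytokinesis. Most of these genes are transcribed in G2 and M phase, under the MuvB complex with B-Myb (Mybl2) and Foxm1. Resting adult lung divides little, and these genes are widely used as a readout of proliferation in tumours. In bulk samples, fewer cells of a type and less RNA per cell cannot be told apart.

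Many promoters of such genes carry the cell cycle homology region (CHR), the element through which MuvB binds, often a short way downstream of CCAAT boxes, the sites of NF-Y. The promoter table from RefSeq (GRCm38.p6), which runs from 250 bases before to 50 bases after each start site, matched 37 of the 44 genes. The CHR core was searched as TTTGAA or TTCGAA on both strands, and the CCAAT box as CCAAT on both strands, and matches of the 2 motifs can share only an end base. A CHR core was found in 28 of the 37 genes (75.7%), against 21.7% of all 27025 genes in the promoter table. A core within 50 bases of the start site was found in 25 of the 37 (67.6%), against 6.12% of all genes. CCAAT boxes were found in 28 of the 37 genes (75.7%), against 41.1% of all genes, and both motifs in 25 (67.6%), against 9.65%. The stretches below belong to the 8 genes of smallest p among those called higher in SCC that hold a core, and they show where the motifs lie. Capitals mark the CHR cores and the CCAAT boxes, and each sequence reads 5′ to 3′ on the gene's strand.
Hmmr, chr11:40733404-40733489, minus strand: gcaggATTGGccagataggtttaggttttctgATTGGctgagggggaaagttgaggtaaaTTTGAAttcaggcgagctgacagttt
Cenpf, chr1:189688059-189688144, minus strand: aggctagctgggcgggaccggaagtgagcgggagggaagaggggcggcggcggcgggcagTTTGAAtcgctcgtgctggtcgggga
Prc1, chr7:80294386-80294471, plus strand: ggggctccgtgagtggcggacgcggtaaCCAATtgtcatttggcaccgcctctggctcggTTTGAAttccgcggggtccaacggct
Kif4, chrX:100626024-100626109, plus strand: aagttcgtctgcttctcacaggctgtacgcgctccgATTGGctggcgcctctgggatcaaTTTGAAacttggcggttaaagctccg
Mki67, chr7:135716452-135716537, minus strand: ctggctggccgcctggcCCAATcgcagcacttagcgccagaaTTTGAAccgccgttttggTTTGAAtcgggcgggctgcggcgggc
Racgap1, chr15:99651626-99651711, minus strand: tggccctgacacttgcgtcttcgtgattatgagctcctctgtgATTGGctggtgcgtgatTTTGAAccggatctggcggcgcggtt
Plk1, chr7:122159405-122159484, plus strand: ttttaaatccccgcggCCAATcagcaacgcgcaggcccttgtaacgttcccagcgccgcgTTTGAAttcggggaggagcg
Anln, chr9:22389157-22389245, minus strand: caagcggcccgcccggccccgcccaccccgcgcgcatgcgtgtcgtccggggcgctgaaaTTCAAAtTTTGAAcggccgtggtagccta

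In each of these 8 stretches the core nearest to the start site reads TTTGAA or its reverse complement, TTCAAA in Anln. In every one of them but Mki67 it begins between positions -5 (Prc1) and 30 (Plk1) relative to the start site. The core of Mki67 nearest to the start begins at position -98, and a further copy lies upstream of it. A CCAAT box begins 17 to 32 bases before the core in Hmmr, Prc1, Kif4 and Racgap1, and 43 and 44 bases before it in Mki67 and Plk1. The stretches of Cenpf and Anln hold no CCAAT box. A match describes the letters in this window and is no evidence of binding in these samples. Of the matched genes called higher in SCC, 13 of 19 held a core, and of the matched genes not called, 15 of 18 did.

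Total counts ran from 1457641 to 6817106 over the normal libraries and from 1004105 to 3691806 over SCC, and a count of 0 allows up to 3 counts, or 0.440 to 2.99 CPM (counts scaled to a library total of 1e+06). The samples carried the markers of their labels. The summed CPM of 10 squamous and basal cell markers was 1.43 to 11.7 in normal lung, where Krt6a, Krt13 and Dsg3 had no count in all 5 libraries, and 1068 to 7753 in SCC. The 10 alveolar markers summed to 8443 to 11999 CPM in normal lung and 698 to 1739 in SCC. Chemosensory receptor genes were counted at 3.28, 0.595, 3.29, 3.51 and 0.416 CPM per kb of coding length across SCC 1 to 5, and at 0.0420 to 0.209 in normal lung. They are taken here to be silent in lung tissue, an assumption that was not tested. SCC 1, SCC 3 and SCC 4 stand apart in this. Taken as a background that falls on every gene in proportion to its exon length, this signal gives an estimated background in CPM for each gene and library, which is printed beside the results. The estimate exceeded the measured count for 21 of the 44 genes in SCC 1 and for 12 in SCC 4. With coding length in place of exon length these numbers were 11 and 6.

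The mitotic genes were higher in SCC than in normal lung, unevenly across both genes and libraries. The summed CPM of the 44 genes was 317, 211, 323, 254 and 265 across normal 1 to 5. Across SCC 1 to 5 it was 933, 801, 1354, 1433 and 2240.4. The lowest SCC library thus stood above the highest normal library. The exon-length background was 581, 105, 584, 622 and 73.8 CPM of the SCC sums, or 62.2%, 13.2%, 43.1%, 43.4% and 3.29% of them, and 7.44 to 37.1 CPM in normal lung. With the background taken off each gene, the sums were 487, 696, 794, 858 and 2167 CPM across SCC 1 to 5 and 188 to 316 in normal lung. CPM after subtraction, here and below, keeps the full library total as its divisor. The estimated background was 25.2%, 25.3% and 27.0% of that total in SCC 1, SCC 3 and SCC 4, and at most 4.58% elsewhere. Values after subtraction are therefore scaled low in SCC 1, SCC 3 and SCC 4 against the other libraries.

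**Figure D1:**
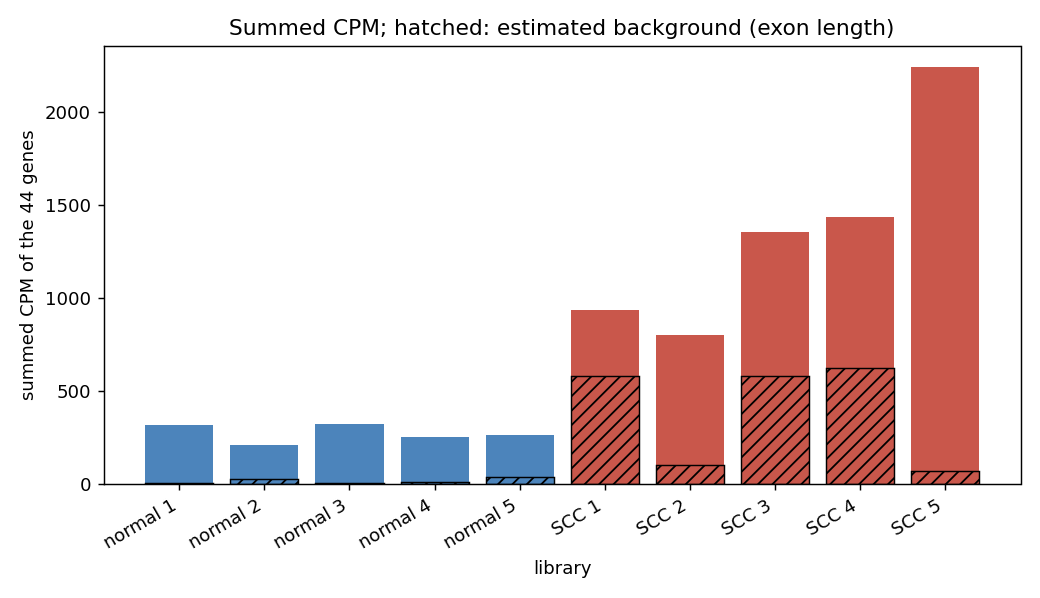
Summed CPM of the 44 genes (vertical axis) in each library (horizontal axis), blue for normal lung and red for SCC, with the estimated background by exon length hatched inside each bar. Normal libraries lie between 211 and 323, and SCC libraries between 801 and 2240.4, of which the hatched part is 62.2% in SCC 1 and 3.29% in SCC 5.

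Of the 44 genes, 34 passed the filter on low counts and 24 of these were called higher in SCC (quasi-likelihood test of edgeR, p under 0.05 after Benjamini-Hochberg adjustment, n = 5 each). None was called lower, 0 had an unadjusted p under 0.05 in that direction, and DESeq2 and limma-voom called 0 lower as well. Of all 13203 genes tested, 12.5% were called higher and 8.68% lower. The median log2 fold change was 2.20 over the 34 tested mitotic genes and 0.07 over all tested genes, and 2.06 over the 44 mitotic genes with no filter. In 29 of the 34, fewer than 5 normal libraries reached the filter's cutoff of 4.69 CPM, so that most passed through their level in SCC. The share called among them and their median are therefore no measure of the whole set. Counts by role below carry the same limit, and stand beside 12.5% of all tested genes, or 23.9% with no filter. With no filter, 25 of 44 were called higher, against 23.9% of 22919 genes, and with a filter of 1 CPM in 5 libraries 30 of 44, against 20.6%. DESeq2 called 35 of 44, against 27.8%, and limma-voom 31 of 34, against 24.7%. Each SCC library stood above each normal library for 18 of the 44 genes, against 11.8% of the 22919 genes with a count. Of the 34 tested genes this held for 14, against 8.81%. After subtraction of the background this held for 10 of the 44, against 4.02%.

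The call count depended on the SCC libraries used and on their number. The fit of SCC 2 and SCC 5 compares 2 libraries with 5, so a call lost in it need not mean a smaller difference. For Plk1, for example, the SE was 0.77 with all libraries and 1.01 in that fit. When SCC was represented by SCC 2 and SCC 5, the libraries of low receptor signal (called the low-signal pair from here on), 13 of 41 tested genes were called higher, against 4.14% of all genes tested. With the background subtracted, 11 of 26 were called higher, against 8.02%, and 15 of 29 with the background by coding length, against 9.75%. In the low-signal pair after subtraction 10 of 36 were called higher, against 3.93%. SCC 1, SCC 3 and SCC 4 without the pair gave 20 of 38, against 24.7%, and 10 of 26 after subtraction, against 14.8%. No mitotic gene was called lower in any of these fits. Of all genes, 9.04% were called lower with no filter, 6.63% with the filter of 1 CPM, 6.06% by DESeq2 and 20.9% by limma-voom. The share was 5.16% in the low-signal pair, 6.77% after subtraction, 7.56% after subtraction by coding length and 5.27% in the pair after subtraction. It was 18.9% in SCC 1, SCC 3 and SCC 4, and 18.6% in these after subtraction. Without SCC 5 the number called was 14 in place of 24. The fits of all libraries, of the low-signal pair and after subtraction, shared 7 called genes, namely Mki67, Aurkb, Cenpe, Cenpf, Hmmr, Prc1 and Racgap1.

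**Figure D2:**
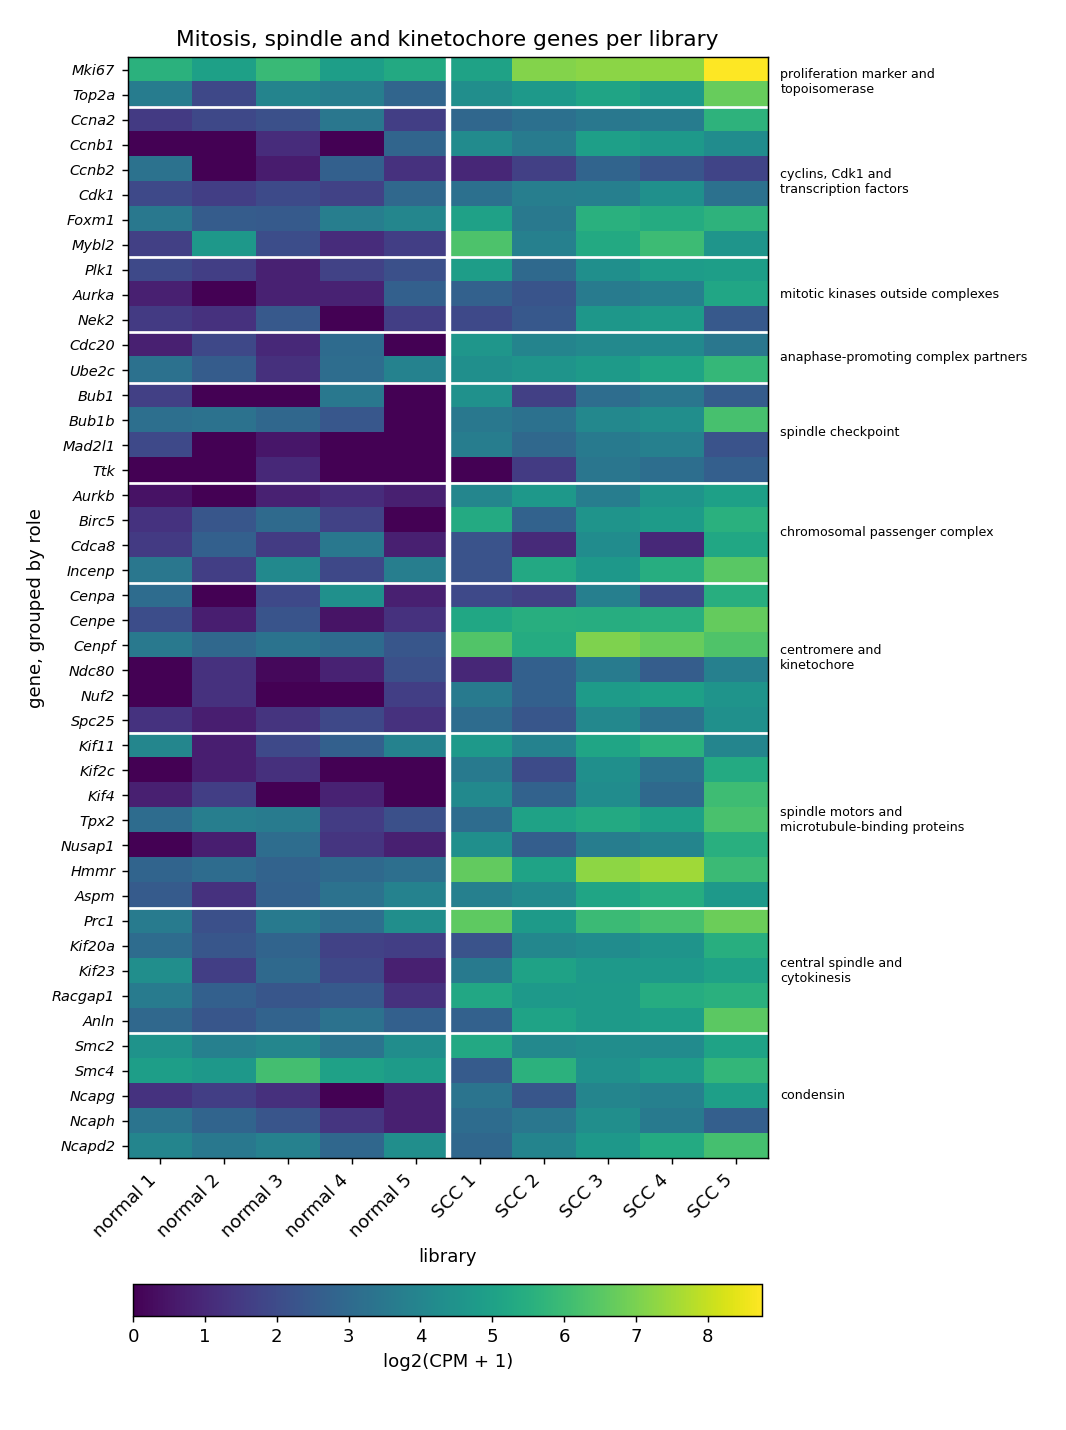
Log2(CPM + 1) of the 44 genes (rows, grouped by role) in the 10 libraries (columns), with the 5 normal libraries left of the white line. SCC 5 holds the highest SCC value of 27 genes, and the condensin rows Smc2, Smc4 and Ncapd2 show overlapping levels in both groups.

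Mki67, the nuclear protein Ki-67 that coats mitotic chromosomes (chromosome 7, 135689784 to 135716361, GRCm38), rose in SCC as a group but not in each library. It stood at 47.2, 30.8, 59.7, 29.3 and 39.1 CPM across normal 1 to 5. In SCC 1 to 5 it stood at 32.1, 139, 149.7, 153 and 432 CPM. SCC 1 therefore lay within the range of normal lung, and the other SCC libraries lay above it. Its value in SCC 1 rested on 34 counts (exact Poisson 95% interval 22.2 to 44.8 CPM), and the background estimated there was 33.0 CPM by exon length and 31.2 by coding length. The log2 fold change was 2.07 (SE 0.48, edgeR adjusted p = 0.00250), 2.71 in the low-signal pair (adjusted p = 0.000102) and 2.28 after subtraction (adjusted p = 0.0436). It was 1.36 without SCC 5 and 1.08 in SCC 1, SCC 3 and SCC 4 (adjusted p = 0.0408), and in these after subtraction the call was lost (1.40, adjusted p = 0.166).

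Top2a, the topoisomerase that untangles sister chromatids, stood at 11.8, 2.73, 14.5, 12.3 and 6.17 CPM in normal lung and 18.9, 25.5, 33.6, 24.9 and 105 CPM in SCC. Every SCC library lay above every normal library, with SCC 5 far above the other SCC libraries. The log2 fold change was 2.04 (SE 0.59, edgeR adjusted p = 0.0135), and 2.67 in the low-signal pair (adjusted p = 0.0126). The call was lost without SCC 5 (1.24, adjusted p = 0.146) and after subtraction (1.96, adjusted p = 0.136), the background being 17.1 of the 18.9 CPM in SCC 1.

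Of the cyclins, Cdk1 and the transcription factors that drive them, 3 of 5 tested genes rose, and Ccnb2 was not tested. Without the filter 2 of 6 were called higher. Ccnb1, cyclin B1, the main partner of Cdk1 at mitotic entry, had 0, 0, 1.17, 0 and 6.17 CPM in normal lung and 17.9, 11.4, 29.7, 24.9 and 18.4 CPM in SCC, with no overlap. It rose by 3.79 on the log2 scale (SE 1.02, edgeR adjusted p = 0.00844) and kept its call after subtraction (4.0, adjusted p = 0.0333), but not in the low-signal pair (3.33, adjusted p = 0.135). Mybl2, the B-Myb factor that activates G2 and M phase genes, had 2.15, 24.6, 3.23, 1.16 and 2.06 CPM in normal lung and 78.2, 13, 39.1, 62.7 and 22.9 CPM in SCC. Normal 2 lay above SCC 2 and SCC 5, so the groups overlapped. Mybl2 rose by 2.61 (SE 0.74, edgeR adjusted p = 0.0123) and was at 1.35 in the low-signal pair (adjusted p = 0.517), 2.95 after subtraction (adjusted p = 0.0377) and 2.24 without SCC 1 (adjusted p = 0.0512).

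Foxm1, the forkhead factor of the same programme, rose by 1.81 (SE 0.58, edgeR adjusted p = 0.0260). It lost its call without normal 1, normal 2, normal 3, SCC 3, SCC 4 or SCC 5 (1.44 to 1.67, adjusted p = 0.0593 to 0.0940), in the low-signal pair (1.6, adjusted p = 0.254) and after subtraction by exon length (1.9, adjusted p = 0.0847). Foxm1 kept its call after subtraction by coding length (1.91, adjusted p = 0.0410) and in SCC 1, SCC 3 and SCC 4 (1.70, adjusted p = 0.0232). Cdk1 itself, the mitotic kinase, had 2.86, 2.05, 2.93, 2.31 and 6.86 CPM in normal lung and 8.48, 12.5, 12.7, 19.9 and 8.57 CPM in SCC. The groups did not overlap, yet the difference of 1.74 did not pass the test (SE 0.78, edgeR adjusted p = 0.118), while it did by DESeq2 (adjusted p = 0.0211) and limma-voom (adjusted p = 0.00901). In SCC 1, SCC 3 and SCC 4 the exon-length background of Cdk1 was 14.6, 14.7 and 15.7 CPM, and that by coding length 2.92, 2.93 and 3.13. Ccna2, cyclin A2, was at 2.01 (edgeR adjusted p = 0.0797), and passed without normal 4 (2.62, adjusted p = 0.0362) and by limma-voom (1.68, adjusted p = 0.0466). Without SCC 5, its highest library, it was at 0.99, and in SCC 1, SCC 3 and SCC 4 at 0.86 (adjusted p = 0.466). Ccnb2, cyclin B2, had 45 counts over the normal libraries and 30 over SCC, with means of 3.26 and 3.12 CPM.

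Of the mitotic kinases outside fixed complexes, both tested members rose, and 2 of 3 were called higher with no filter. Plk1, polo-like kinase 1, which acts from mitotic entry to cytokinesis, had 2.86, 2.05, 0.733, 2.31 and 3.43 CPM in normal lung and 28.3, 7.04, 19.8, 27.9 and 29.4 CPM in SCC. The groups did not overlap, and SCC 2 was the lowest SCC library. Plk1 rose by 3.21 (SE 0.77, edgeR adjusted p = 0.00326) and kept its call after subtraction (3.43, adjusted p = 0.0123), but not in the low-signal pair (2.94, adjusted p = 0.0741). Aurka, Aurora A, the kinase of centrosomes and spindle poles, had 0.716, 0, 0.733, 0.772 and 5.49 CPM in normal lung and 5.66, 3.79, 11.6, 12.9 and 35.1 CPM in SCC, where normal 5 lay above SCC 2. It rose by 3.17 (SE 1.0, edgeR adjusted p = 0.0233), and SCC 5 was far above the other SCC libraries. The call was lost without normal 1, normal 2, normal 3 or normal 4 (adjusted p = 0.05002 to 0.0605) and in the low-signal pair (adjusted p = 0.0558), and Aurka was not tested without SCC 5 or after subtraction. Nek2, a centrosome kinase, did not pass the filter, and stood at 23.7 and 26.9 CPM in SCC 3 and SCC 4 against at most 4.49 in the other libraries.

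Both partners of the anaphase-promoting complex rose with all libraries, and 1 of 2 was called higher with no filter. Ube2c, its ubiquitin-conjugating enzyme, had 8.59, 4.78, 1.32, 7.72 and 13.7 CPM in normal lung and 19.8, 21.9, 26.4, 33.9 and 56.3 CPM in SCC, with a log2 fold change of 2.05 (SE 0.64, edgeR adjusted p = 0.0226). Cdc20, its mitotic activator, had 0.716, 2.73, 1.03, 7.33 and 0 CPM in normal lung and 23.6, 14.4, 16.5, 16.9 and 10.2 CPM in SCC, with a log2 fold change of 2.58 (SE 0.88, edgeR adjusted p = 0.0376). For both genes every SCC library lay above every normal library, while SCC 5 was the highest SCC library for Ube2c and the lowest for Cdc20. Neither call held after subtraction by exon length (2.21, adjusted p = 0.0583 for Ube2c, and 2.71, adjusted p = 0.0851 for Cdc20) or in the low-signal pair (2.37, adjusted p = 0.0705, and 2.17, adjusted p = 0.305), while Ube2c passed after subtraction by coding length (adjusted p = 0.0246). Ube2c lost its call when any of normal 2, normal 3, SCC 4 and SCC 5 was left out (adjusted p = 0.0511 to 0.0811), and Cdc20 without any one library other than normal 4 and SCC 5 (adjusted p = 0.0509 to 0.102).

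The spindle checkpoint genes gave no call in the edgeR fit with all libraries and the filter on low counts. There 0 of 2 tested genes passed and 1 had an unadjusted p under 0.05. Without that filter, or with the filter of 1 CPM, edgeR called 3 of 4, against 23.9% and 20.6% of all genes. DESeq2 called 3 of 4 and limma-voom 2 of 2. Bub1b, which encodes the checkpoint protein BubR1, had 8.23, 8.89, 6.6, 4.24 and 0 CPM in normal lung and 10.4, 8.67, 16, 18.9 and 73.5 CPM in SCC, with SCC 2 within the normal range and SCC 5 far above it. The difference was 2.13 (SE 0.79, edgeR adjusted p = 0.0547), and it passed without SCC 1 (2.30, adjusted p = 0.0449) and without SCC 2 (2.34, adjusted p = 0.0365). Without SCC 5 the difference was 1.08. Bub1b also passed with upper-quartile factors (2.24, adjusted p = 0.0442), with DESeq2 size factors (2.23, adjusted p = 0.0453) and with either of the other filters (adjusted p = 0.0286 and 0.0409). It did not pass after subtraction (1.9, adjusted p = 0.305), in the low-signal pair (2.8, adjusted p = 0.0583) or in SCC 1, SCC 3 and SCC 4 (1.06, adjusted p = 0.361). Bub1, the kinetochore kinase of the checkpoint, had 2.15, 0, 0, 10.4 and 0 CPM in normal lung and 20.7, 2.17, 7.71, 9.96 and 4.9 CPM in SCC, and the groups overlapped (log2 fold change 1.6, SE 1.12, edgeR adjusted p = 0.344). Without normal 4, its highest normal library, Bub1 was not tested. Mad2l1, the checkpoint's Mad2, and Ttk, the kinase Mps1, had 11 and 7 counts over all normal libraries and 80 and 46 over SCC, and did not pass the filter. When no filter was used edgeR called both, at 3.08 (adjusted p = 0.0318) and 3.38 (adjusted p = 0.0405). Mad2l1 was also called by edgeR in SCC 1, SCC 3 and SCC 4 (3.64, adjusted p = 0.00745). Ttk had no count in SCC 1. The exon-length background was 163% of the SCC counts of Mad2l1, 102% of those of Ttk and 84% of those of Bub1, and by coding length 12.5%, 87.7% and 78%. After subtraction by exon length the 4 checkpoint genes summed to 4.23 to 9.53 CPM over SCC 1 to 4, within the 0 to 14.2 CPM of normal lung. In SCC 5 they summed to 79.9 CPM. That subtraction left Mad2l1 at 0 in SCC 1, SCC 3 and SCC 4. By coding length Mad2l1 alone kept 10.2, 8.98 and 10.8 CPM there, against at most 2.84 in normal lung. The place of SCC 1, SCC 3 and SCC 4 within the normal range thus depends on the length used.

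All 3 tested genes of the chromosomal passenger complex rose, and 3 of 4 were called higher with no filter. Aurkb, Aurora B, its kinase (chromosome 11, 69045647 to 69051664), had 0.358, 0, 0.733, 1.16 and 0.686 CPM in normal lung and 15.1, 24.6, 12.1, 21.9 and 30.2 CPM in SCC. The highest normal value was far under the lowest SCC value, and the highest SCC values were those of SCC 5 and SCC 2. Aurkb rose by 4.86 (SE 0.87, edgeR adjusted p = 0.000220) from 10 counts over normal lung, and was at 5.25 in the low-signal pair (adjusted p = 0.00147) and 5.24 after subtraction (adjusted p = 0.00215). Birc5, survivin, which targets the complex to centromeres, had 1.43, 4.1, 7.19, 2.31 and 0 CPM in normal lung and 39.6, 5.69, 22, 26.9 and 46.5 CPM in SCC, with SCC 2 under normal 3. Birc5 rose by 3.06 (SE 0.79, edgeR adjusted p = 0.00631) and kept its call after subtraction (adjusted p = 0.0320), but not in the low-signal pair (2.98, adjusted p = 0.0782).

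Incenp, the scaffold of the complex, had 10.02, 2.05, 16.7, 2.7 and 12.3 CPM in normal lung and 3.77, 38.5, 24.2, 42.8 and 89.8 CPM in SCC. SCC 1 lay within the normal range, under its exon-length background of 10.6 CPM, and the other SCC libraries lay above normal lung. Incenp rose by 2.11 (SE 0.67, edgeR adjusted p = 0.0253), also in the low-signal pair (2.77, adjusted p = 0.0133). Its call was lost after subtraction (2.29, adjusted p = 0.107) and without normal 1, normal 2, normal 4 or SCC 5 (1.46 to 2.01, adjusted p = 0.0521 to 0.137). Cdca8, borealin, did not pass the filter and had 3.77, 1.08, 18.2, 0.996 and 35.9 CPM in SCC, with SCC 3 and SCC 5 above and the other SCC libraries within the normal range of 0.686 to 10.4.

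The centromere and kinetochore genes included Cenpf and Cenpe, whose p-values were among the smallest of the set. Here 3 of 3 tested genes were higher, while 3 further genes did not pass the filter. Without the filter 3 of 6 were called higher. Cenpe, the kinetochore motor that carries chromosomes to the spindle equator (chromosome 3, 135212537 to 135273611), had 3.22, 0.684, 3.81, 0.386 and 1.37 CPM in normal lung and 35.8, 43.6, 42.9, 44.8 and 102 CPM in SCC. Cenpf, a large kinetochore protein of G2 and M phase (chromosome 1, 189640606 to 189688086), had 10.7, 6.84, 9.09, 7.33 and 4.12 CPM in normal lung and 82, 40.9, 132, 104 and 79.6 CPM in SCC. For both the groups were far apart, with Cenpe highest in SCC 5 and Cenpf highest in SCC 3. Cenpe rose by 4.61 (SE 0.63, edgeR adjusted p = 8.66e-06), by 5.04 in the low-signal pair (adjusted p = 9.78e-05) and by 4.86 after subtraction (adjusted p = 0.00320). In SCC 1, SCC 3 and SCC 4 the exon-length background made up 25.9, 26.1 and 27.8 CPM of its level. Cenpf rose by 3.39 (SE 0.46, edgeR adjusted p = 7.34e-06), by 2.87 in the low-signal pair (adjusted p = 0.00437) and by 3.69 after subtraction (adjusted p = 0.000260).

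Nuf2, a subunit of the Ndc80 complex that grips microtubules, had 0, 1.37, 0, 0 and 2.06 CPM in normal lung, 5 counts in all, and 11.3, 5.42, 27, 30.9 and 22 CPM in SCC, with no overlap. Nuf2 rose by 5.03 (SE 1.12, edgeR adjusted p = 0.00182), missed the threshold in the low-signal pair (4.52, adjusted p = 0.0527) and was not tested after subtraction or without SCC 5. Its partners Ndc80 and Spc25 did not pass the filter and had means of 1.14 and 1.53 CPM in normal lung and 7.19 and 11.3 in SCC. DESeq2 called both (adjusted p = 0.0373 and 0.00218), while edgeR with no filter called neither (adjusted p = 0.105 and 0.0648). Spc25 was called by edgeR in SCC 1, SCC 3 and SCC 4 (2.40, adjusted p = 0.0274) but not in the low-signal pair (2.84, adjusted p = 0.128). For Spc25 every SCC library lay above every normal library, and for Ndc80 SCC 1 lay within the normal range. Cenpa, the histone H3 variant that marks centromeres, had 7.52, 0, 2.79, 20.1 and 0.686 CPM in normal lung and 2.83, 2.17, 12.7, 2.99 and 44.1 CPM in SCC, so that SCC 5 alone lay above normal lung.

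**Figure D3:**
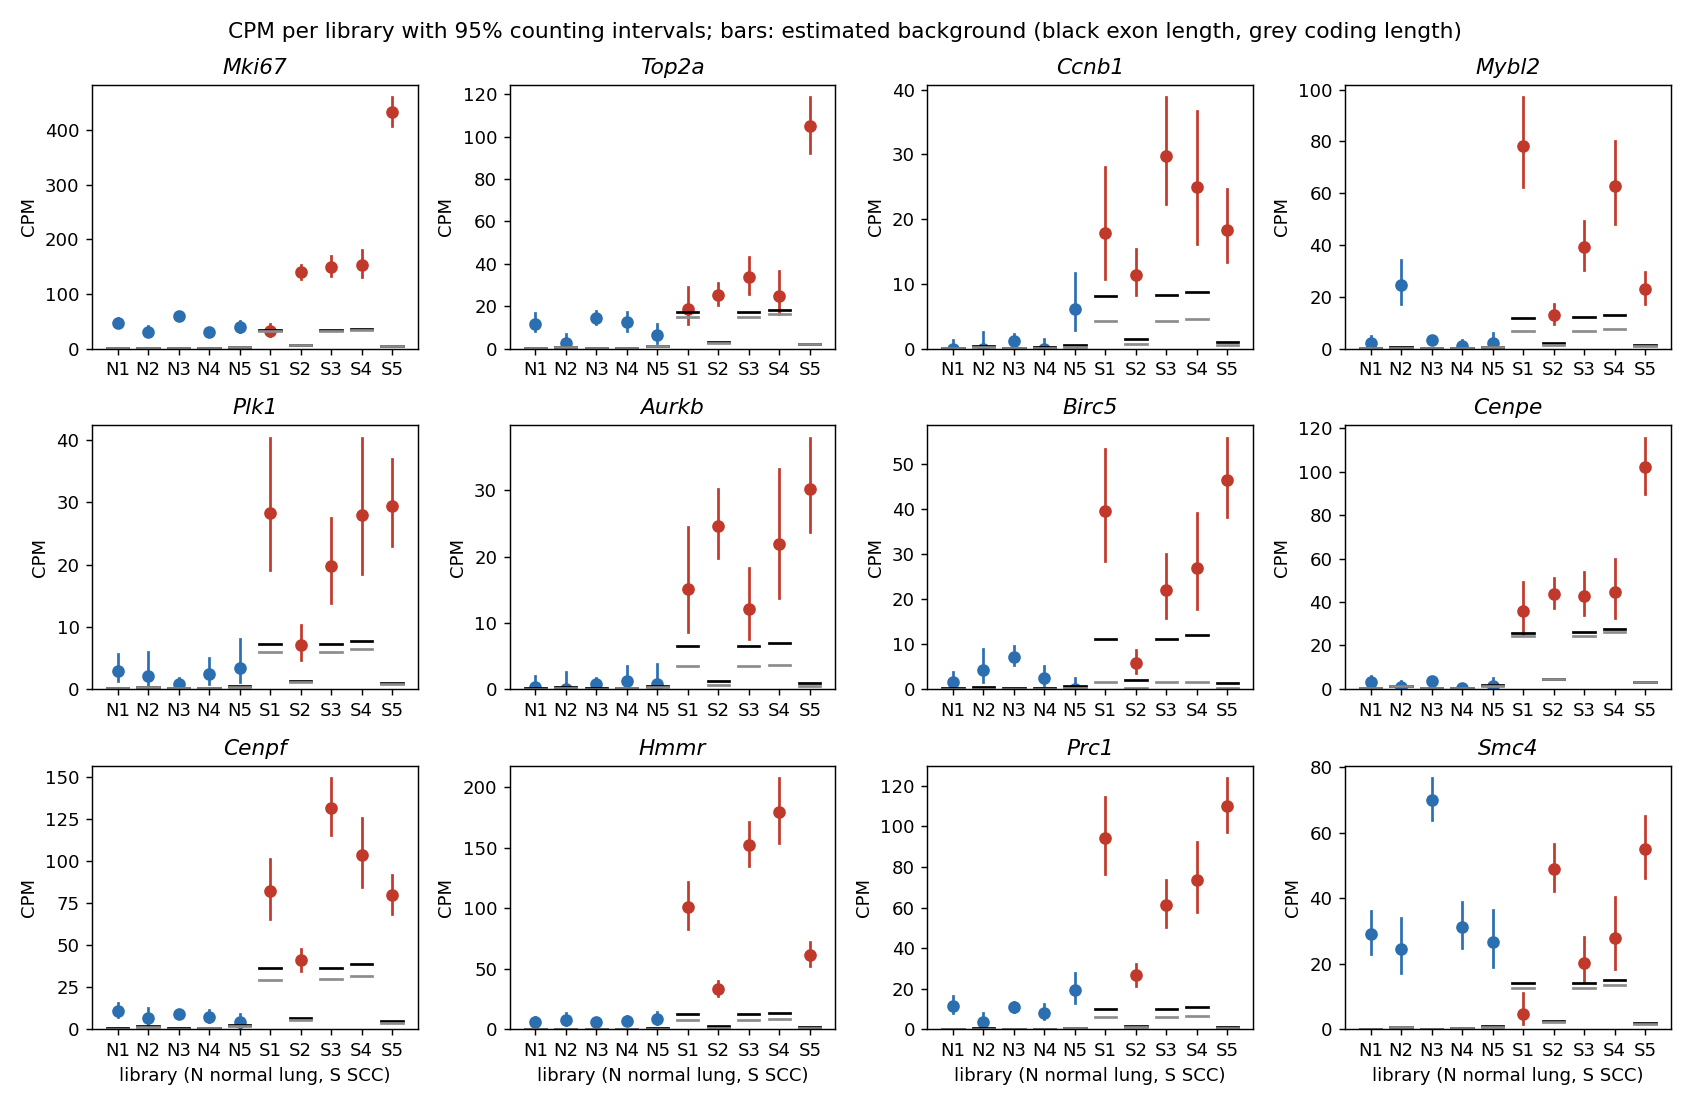
CPM (vertical axis, linear, from 0) of 12 genes in each library (N normal lung, S SCC), points with exact 95% counting intervals, black bars for the background estimated by exon length and grey bars for that by coding length. Mki67 in SCC 1 (32.1 CPM) sits at its background bar (33.0), whereas Hmmr, Prc1 and Aurkb stand above theirs in each SCC library.

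Of the spindle motors and microtubule-binding proteins, 5 of 6 tested genes rose, and 5 of 7 were called higher with no filter. Hmmr, a spindle pole protein and hyaluronan receptor (chromosome 11, 40701395 to 40733422), had 6.08, 7.52, 5.87, 6.94 and 8.23 CPM in normal lung, the narrowest spread on the log2 scale among the 44 genes, and 101, 33, 152, 179 and 61.7 CPM in SCC. SCC 4 and SCC 3 were highest and SCC 2 lowest, and the exon-length background was 12.8 to 13.7 CPM in SCC 1, SCC 3 and SCC 4. Hmmr rose by 3.81 (SE 0.48, edgeR adjusted p = 3.63e-06), by 2.67 in the low-signal pair (adjusted p = 0.0125) and by 4.42 after subtraction (adjusted p = 6.47e-05). Kif4, a chromosome-bound kinesin, had 0.716, 2.05, 0, 0.772 and 0 CPM in normal lung, 7 counts in all, and 17, 5.69, 18.2, 6.97 and 65.3 CPM in SCC. Kif4 rose by 5.05 (SE 1.06, edgeR adjusted p = 0.00101) and by 5.72 in the low-signal pair (adjusted p = 0.00263), and was not tested after subtraction. Its exon-length background was 16.3, 16.4 and 17.5 CPM in SCC 1, SCC 3 and SCC 4, against measured values of 17.0, 18.2 and 6.97.

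Tpx2, the activator of Aurora A on the spindle, rose by 2.25 (SE 0.64, edgeR adjusted p = 0.0121), also in the low-signal pair (adjusted p = 0.0164), but not without SCC 5 (1.72, adjusted p = 0.0658) or after subtraction (adjusted p = 0.103). Nusap1, which bundles spindle microtubules, rose by 2.98 (SE 0.93, edgeR adjusted p = 0.0221), and lost its call in the low-signal pair (adjusted p = 0.0706). It also lost it without normal 1, normal 2, normal 4, normal 5 or SCC 5 (2.28 to 2.71, adjusted p = 0.0508 to 0.0958). Nusap1 was not tested after subtraction by exon length, and passed after subtraction by coding length (2.97, adjusted p = 0.0466). Aspm, a spindle pole protein, was at 1.84 (edgeR adjusted p = 0.0490) and at 0.76 after subtraction (adjusted p = 0.71), the background by exon length being 65.3% of its SCC counts. Aspm lost its call in the low-signal pair (1.52, adjusted p = 0.343) and without any one of 7 libraries (adjusted p = 0.0595 to 0.182), which were normal 1 to normal 4 and SCC 3 to SCC 5. Kif11, the motor that separates the spindle poles, had 15.4, 0.684, 2.79, 5.4 and 13.7 CPM in normal lung and 25.5, 13.8, 34.7, 47.8 and 14.7 CPM in SCC. SCC 2 and SCC 5 lay within the normal range, and the difference of 1.73 did not pass (SE 0.7, edgeR adjusted p = 0.0844). Kif11 passed with upper-quartile factors (1.99, adjusted p = 0.0486), in SCC 1, SCC 3 and SCC 4 (adjusted p = 0.0392), by DESeq2 (adjusted p = 0.0255) and by limma-voom (adjusted p = 0.00108). It was at 0.82 in the low-signal pair (adjusted p = 0.707), 1.7 after subtraction (adjusted p = 0.263) and 1.27 with no filter (adjusted p = 0.144), and the exon-length background was 34.7% of its SCC counts.

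Of the central spindle and cytokinesis genes, 4 of 5 rose, and 3 of 5 were called higher with no filter. Prc1, which bundles the antiparallel microtubules of the central spindle (chromosome 7, 80294450 to 80316259), had 11.5, 3.42, 10.9, 8.1 and 19.2 CPM in normal lung and 94.3, 26.5, 61.1, 73.7 and 109.8 CPM in SCC, with no overlap. Prc1 rose by 2.69 (SE 0.5, edgeR adjusted p = 0.000327), by 2.62 in the low-signal pair (adjusted p = 0.0123) and by 3.08 after subtraction (adjusted p = 0.00115). Racgap1, a subunit of centralspindlin (chromosome 15, 99620496 to 99651656), had 11.5, 5.47, 4.11, 4.63 and 1.37 CPM in normal lung and 36.8, 25.2, 26.4, 41.8 and 45.7 CPM in SCC. Its SCC libraries were the most even of the 44 genes on the log2 scale, and none overlapped normal lung. Racgap1 rose by 2.58 (SE 0.6, edgeR adjusted p = 0.00273), by 2.61 in the low-signal pair (adjusted p = 0.0443) and by 2.84 after subtraction (adjusted p = 0.0125).

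Kif23, the motor subunit of centralspindlin, had 19.3, 2.05, 6.89, 2.7 and 0.686 CPM in normal lung and 11.3, 32, 25.9, 25.9 and 31.4 CPM in SCC, with SCC 1 under normal 1. The difference was 1.9 (SE 0.72, edgeR adjusted p = 0.0629). Kif23 was past the threshold when normal 1 was left out (2.67, adjusted p = 0.0155), with DESeq2 size factors (adjusted p = 0.0487), with upper-quartile factors (adjusted p = 0.0428), with the filter of 1 CPM (adjusted p = 0.0446), by DESeq2 (adjusted p = 0.0150) and by limma-voom (adjusted p = 0.0101). Anln, anillin of the contractile ring, rose by 2.51 (SE 0.64, edgeR adjusted p = 0.00543) and by 3.24 in the low-signal pair (adjusted p = 0.00200). SCC 1, at 5.66 CPM, lay within its normal range of 4.10 to 8.87, and the call was lost without SCC 5 (1.72, adjusted p = 0.0648) and after subtraction by exon length (adjusted p = 0.0752). Anln kept its call after subtraction by coding length (2.47, adjusted p = 0.0427). Kif20a, a kinesin of the central spindle, rose by 2.14 (SE 0.74, edgeR adjusted p = 0.0393) and lost its call in the low-signal pair (adjusted p = 0.0518), after subtraction (adjusted p = 0.221) and without any one library other than SCC 1 and SCC 2 (adjusted p = 0.0545 to 0.156).

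The condensin genes gave no call in the edgeR fit with all libraries and the filter on low counts. None of the 4 tested genes passed there and 0 had an unadjusted p under 0.05, while DESeq2 called 1 of 5 and limma-voom 1 of 4. Without the filter edgeR called 1 of 5, against 23.9% of all genes, and with the filter of 1 CPM also 1 of 5, against 20.6%. Smc4, an ATPase core subunit of condensin, had 29, 24.6, 70.1, 31.2 and 26.8 CPM in normal lung and 4.71, 49, 20.4, 27.9 and 55.1 CPM in SCC, and the groups overlapped, with SCC 1 lowest of all. Its log2 fold change was -0.29 (SE 0.52, edgeR adjusted p = 0.755), and 0.39 in the low-signal pair. In SCC 1, SCC 3 and SCC 4 Smc4 was at -1.40 (edgeR adjusted p = 0.0528). For a fall, 1 condensin gene had an unadjusted p under 0.05 in that fit, and 1 in the same libraries after subtraction. In SCC 1 Smc4 had 5 counts where the exon-length background would give 14.1 CPM, above the measured 4.71. Smc2, its partner, was at 0.57 (SE 0.54, edgeR adjusted p = 0.503), and only SCC 1 and SCC 5 lay above normal lung.

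Ncapd2, a regulatory subunit of condensin I, had 15, 10.3, 13.5, 6.56 and 19.2 CPM in normal lung and 6.6, 14.6, 24.2, 39.8 and 71 CPM in SCC, and differed by 1.21 (SE 0.6, edgeR adjusted p = 0.163). Ncaph, the kleisin of condensin I, had 9.31, 6.15, 3.96, 1.54 and 0.686 CPM in normal lung and 7.54, 10.02, 19.3, 11 and 5.31 CPM in SCC, and differed by 1.18 (SE 0.82, edgeR adjusted p = 0.345). SCC 3 to SCC 5 lay above normal lung for Ncapd2, and SCC 2 to SCC 4 for Ncaph. Ncapg, a further subunit of condensin I, had 17 counts over normal lung and 138 over SCC, with no overlap. It did not pass the filter with all libraries. By edgeR it was called in the low-signal pair (3.86, adjusted p = 0.0393), in SCC 1, SCC 3 and SCC 4 (3.11, adjusted p = 0.00980) and with no filter (3.22, adjusted p = 0.0113). DESeq2 called it as well (3.71, adjusted p = 0.000145). A difference between condensin and the other role groups was not tested.

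**Figure D4:**
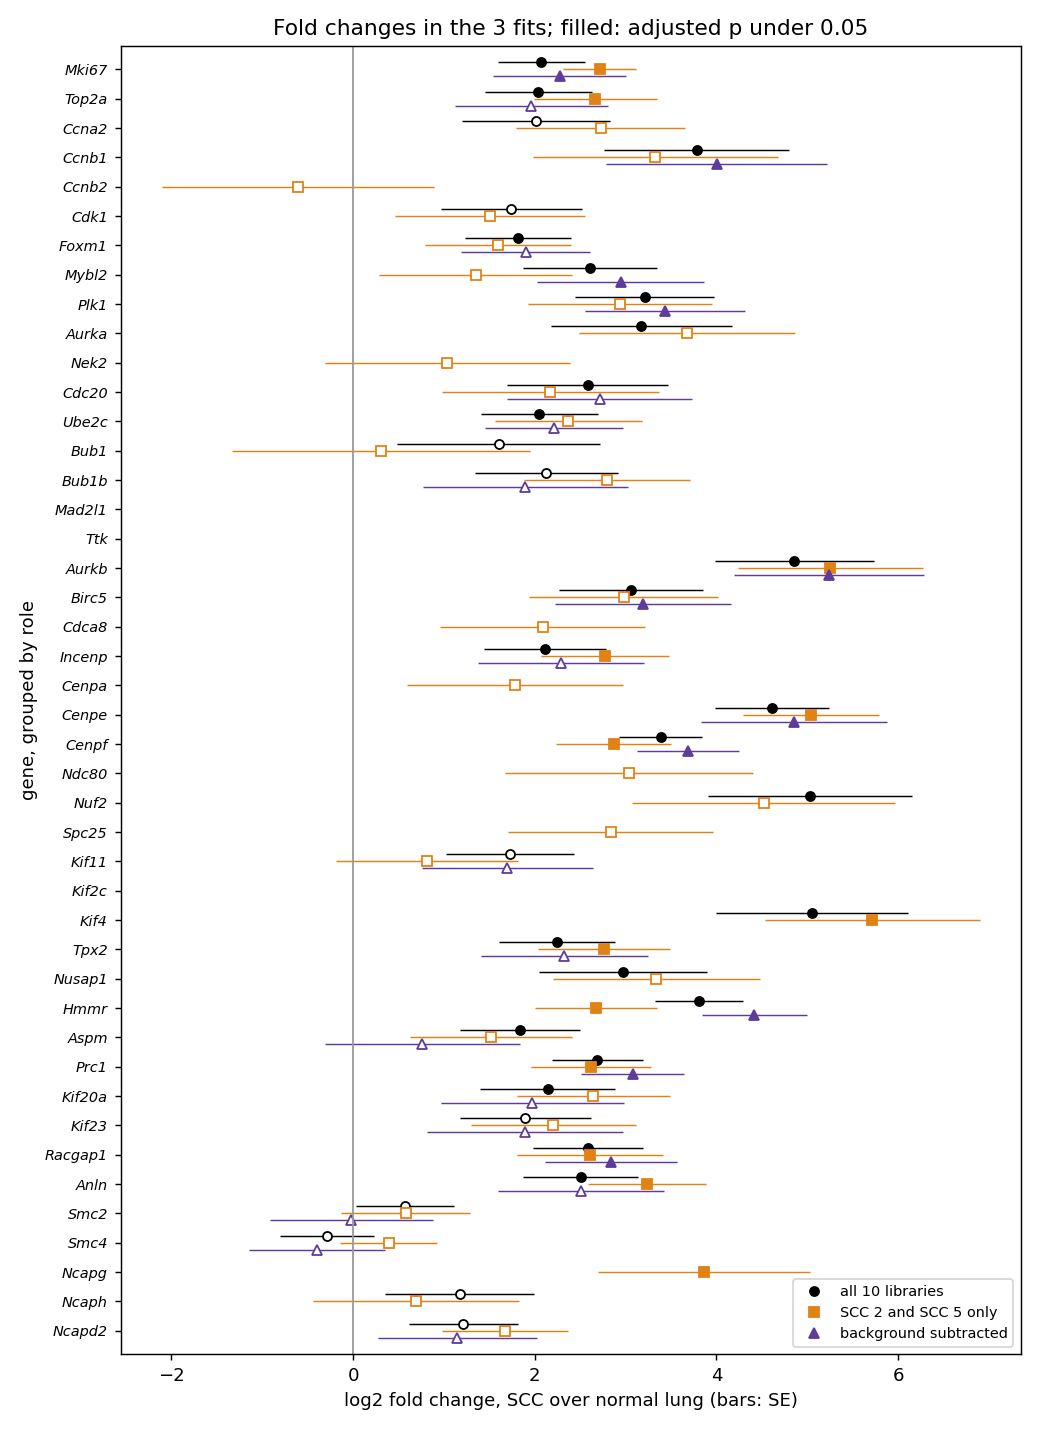
Log2 fold change of SCC over normal lung (horizontal axis, bars for the SE) of the 44 genes by role, with circles for all 10 libraries, squares for the low-signal pair and triangles after background subtraction, filled where the edgeR adjusted p is under 0.05. Genes without a symbol were not tested in that fit; Smc4 lies on both sides of 0, and Aurkb, Cenpe, Cenpf, Hmmr, Prc1 and Racgap1 are filled in each fit.

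Levels between genes are compared per kb of exon length. In normal lung Smc4 (8.42 CPM per kb), Mki67 (4.10), Cenpa (3.78) and Prc1 (3.46) were highest by mean over 5 libraries, and Ttk (0.0708), Mad2l1 (0.0823) and Kif2c (0.126) lowest. The value of Mad2l1 rests on an exon length of 8032 bases, of which 615 are coding. In SCC the order changed at the top, where Hmmr (27.1 CPM per kb), Prc1 (23.8) and Mki67 (18) led by mean and Smc4 stood at 7.28. The order differed between libraries. Hmmr led in SCC 3 and SCC 4 (39.04 and 46.1 CPM per kb) and Prc1 in SCC 1 (30.7), while Mki67 led in SCC 2 (13.9, with Hmmr at 8.49) and SCC 5 (42.98, with Hmmr at 15.8). Kif2c, the microtubule-depolymerizing kinesin MCAK, had 10 counts over normal lung and 11.3, 2.98, 19.8, 8.96 and 40.01 CPM in SCC, with no overlap, and did not pass the filter. It was called by edgeR with no filter (4.56, adjusted p = 0.000494) and in SCC 1, SCC 3 and SCC 4 (4.30, adjusted p = 0.00215), and by DESeq2 (5.14, adjusted p = 1.44e-05). The exon-length background was 31.1% of its SCC counts.

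Each SCC library had its own profile. SCC 5 held the highest SCC value of 27 of the 44 genes, SCC 4 of 7, SCC 3 of 5, SCC 1 of 4 and SCC 2 of 1. The lowest SCC value was that of SCC 2 for 21 genes and that of SCC 1 for 18. SCC 5 was also the library with the lowest receptor signal among SCC and with the highest sum of squamous markers, at 7753 CPM against 1068 to 2913 in the other SCC libraries. The part of the squamous content in the level of the mitotic genes was not tested. After subtraction SCC 5 held the highest SCC value of 32 of the 44 genes.

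Relative to the highest normal library, 27, 28, 39, 38 and 38 of the 44 genes were higher across SCC 1 to 5. The same held for 45.1%, 34.6%, 55.3%, 51.9% and 30.5% of all 22919 genes with a count. After subtraction the numbers were 13, 23, 28, 24 and 36 of 44, and for all genes 24%, 24.4%, 29.3%, 26.9% and 24.6%. SCC 1 thus went from 27 to 13 genes and SCC 5 from 38 to 36. In SCC 1 the counting interval of 15 genes lay wholly above the exon-length background and of 21 above that by coding length, whereas in SCC 5 these numbers were 43 and 44.

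By role, the mean difference in log2(CPM + 1) from normal lung was 0.39, 1.64, 1.89, 1.70 and 3.46 across SCC 1 to 5 for Mki67 and Top2a. The cyclins, Cdk1 and transcription factors were more even across the libraries, at 1.78, 1.27, 2.32, 2.41 and 2.20. The chromosomal passenger complex stood at 1.65, 1.63, 2.47, 2.13 and 3.75, and condensin at 0.25, 0.72, 1.16, 1.18 and 1.75. Of the 10 roles, SCC 4 was the highest library for the cyclins, the mitotic kinases (3.15 against 2.85 in SCC 5) and the spindle checkpoint (2.66 against 2.39), and SCC 5 for the others. These differences include the background. After subtraction by exon length Mki67 and Top2a summed to 1.74 CPM in SCC 1 against 31.2 to 73.6 in normal lung. Condensin summed to 19.995, 29.1 and 37.8 CPM in SCC 1, SCC 3 and SCC 4, under the 47.4 to 103 CPM of the normal libraries. These sums keep the full library totals as divisor, and the place of SCC 4 under normal lung for condensin depends on that scaling. After subtraction SCC 5 had the highest sum for the cyclins as well, at 143 CPM against 94.8 in SCC 4.

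Markers of other cell types were measured beside these genes. The 14 leukocyte markers summed to 340.5 to 621 CPM in normal lung, and in SCC to 321 to 474, with 1 of 12 tested called higher and 2 lower. Endothelial markers (7 genes) summed to 2025 to 3029 CPM in normal lung and 151 to 345 in SCC, and 6 of 7 were lower. Fibroblast markers (7 genes) summed to 918 to 1489.6 and 298 to 1149 CPM, with 3 of 7 lower and 0 higher. Erythroid markers (6 genes) summed to 62.9 to 250.2 CPM in normal lung, and in SCC to 7.35 to 19.2. All 10 squamous markers were called higher. Of the 10 alveolar markers, 9 were called lower and 1 higher. The part of cell makeup in the mitotic gene levels was not tested.

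Other genes of the same machinery were called in part. Of all tested genes, 12.5% were called higher with all libraries, 4.14% in the low-signal pair and 8.02% after subtraction. The shares called lower were 8.68%, 5.16% and 6.77%. Counts of the lists below that lie near or under these shares, such as 1 of 15 after subtraction, are no result about the list. Of 36 further kinetochore, centromere and checkpoint genes, 23 were tested, 8 were higher and 0 lower (median log2 fold change 1.23), with 2 of 28 higher in the low-signal pair and 4 of 16 after subtraction. Sgol2a, which encodes shugoshin 2, the protector of centromeric cohesion, ranged over 2.49 to 6.17 CPM in normal lung and 32.2 to 79.2 CPM in SCC, a rise of 3.59 (SE 0.51, edgeR adjusted p = 1.49e-05). It was at 3.41, adjusted p = 0.00253 in the low-signal pair and 3.98, adjusted p = 0.000148 after subtraction. Nsl1, a subunit of the Mis12 complex, rose by 3.37 (edgeR adjusted p = 0.00165). It lost its call in the low-signal pair (1.97, adjusted p = 0.303) and kept it after subtraction (3.76, adjusted p = 0.0183). Of 33 further spindle and centrosome genes, 22 were tested, 8 were higher and 1 lower (median 1.27), with 3 of 27 higher in the low-signal pair and 1 of 15 after subtraction. Kif14 and Dlgap5, both spindle proteins, rose by 4.21 and 3.59 (edgeR adjusted p = 0.000116 and 0.000855), and Dlgap5 held its call in the low-signal pair (3.30, adjusted p = 0.0323) while Kif14 did not (2.92, adjusted p = 0.0826). Neither was tested after subtraction.

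Of 12 further cytokinesis genes, all tested, 3 were higher and 1 lower (median 1.33), with 2 of 12 higher in the low-signal pair and 0 of 10 after subtraction. Iqgap3, a scaffold protein, rose by 3.82 (edgeR adjusted p = 0.000684) and was at 2.41, adjusted p = 0.207 in the low-signal pair. Arhgap11a rose by 2.07 (edgeR adjusted p = 0.0157) and lost its call without normal 4 (1.75, adjusted p = 0.0517), without SCC 5 (1.34, adjusted p = 0.138) and after subtraction (1.88, adjusted p = 0.187). Of 17 mitotic entry regulators, 11 were tested, 3 were higher and 0 lower (median 1.60), with 1 of 13 higher in the low-signal pair and 0 of 6 after subtraction. Mastl, the Greatwall kinase, rose by 3.69 (edgeR adjusted p = 0.00350), and Bora, an activator of Aurora A and Plk1, by 4.05 (edgeR adjusted p = 0.00702), from at most 3.43 and 1.37 CPM in a normal library. In the low-signal pair Mastl was at 3.84, adjusted p = 0.0289 and Bora at 3.96, adjusted p = 0.0739. Iqgap3, Mastl and Bora were not tested after subtraction.

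Further lists gave few calls in edgeR with all libraries. The anaphase-promoting complex had 0 of 16 tested genes higher and 0 lower (edgeR; 1 and 3 at an unadjusted p under 0.05), with a median of -0.17, where DESeq2 called 2 higher and 2 lower and limma-voom 0 and 3. Cdc27 and Anapc1, subunits of its core, were at -1.03 and -0.92 (edgeR adjusted p = 0.0598 for both). Cdc27 passed when any of normal 2, normal 3, normal 5 and SCC 5 was left out (adjusted p = 0.0163 to 0.0481) and with no filter (0.0123), and Anapc1 without normal 2 or SCC 2 (adjusted p = 0.0454 and 0.0172) or with no filter (0.0240). Cohesin, separase and condensin II genes had 2 of 16 higher, a share equal to the 12.5% of all tested genes, and 2 lower (median -0.37). After subtraction, and in the low-signal pair, 0 of 16 were higher, and 2 and 0 were lower. By limma-voom 3 of 16 were higher and 8 lower, against 24.7% and 20.9% of all genes. In SCC 1, SCC 3 and SCC 4 edgeR called 3 of 18 higher and 9 lower, against 24.7% and 18.9%. Espl1, separase, rose by 2.65 (SE 0.72, edgeR adjusted p = 0.00936) and Stag2, a cohesin subunit, fell, at -1.34 (SE 0.38, edgeR adjusted p = 0.0114), and neither passed in the low-signal pair (2.49, adjusted p = 0.118, and -0.93, adjusted p = 0.163). After subtraction Espl1 was at 2.51, adjusted p = 0.147, while Stag2 kept its call (-1.32, adjusted p = 0.0351).

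The MuvB core, pocket proteins and E2F partners, which hold these promoters silent in resting cells or open them in cycling ones, had 0 of 12 higher (edgeR, 0 at an unadjusted p under 0.05, and 0 by DESeq2 and limma-voom) and 2 lower (median 0.01). Tfdp2, an E2F partner, ranged over 100.2 to 154 CPM in normal lung and 32.3 to 64.1 CPM in SCC (log2 fold change -1.38, SE 0.35, edgeR adjusted p = 0.00527), and was at -1.57, adjusted p = 0.0169 in the low-signal pair. Rbl2, the pocket protein p130 of resting cells, fell, at -1.12 (SE 0.39, edgeR adjusted p = 0.0390). That call was lost in the low-signal pair (-0.94, adjusted p = 0.275), after subtraction (-1.16, adjusted p = 0.0848), with DESeq2 size factors (-1.03, adjusted p = 0.0546), with upper-quartile factors (-0.93, adjusted p = 0.0837) and without normal 1, normal 3, SCC 1, SCC 3 or SCC 4 (adjusted p = 0.0601 to 0.127). Of 22 DNA replication genes, 16 were tested, 6 were higher and 0 lower (median 1.16), with 1 of 19 higher in the low-signal pair and 2 of 15 after subtraction. Tyms, thymidylate synthase, was at 3.27 (edgeR adjusted p = 3.11e-05, and 1.65, adjusted p = 0.0273 in the low-signal pair) and Cdc6, a licensing factor, at 4.41 (edgeR adjusted p = 0.00102, and 3.43, adjusted p = 0.102 in the low-signal pair).

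Exons of 11 of the 44 genes share bases with another annotated gene, on the opposite strand in 10 of them. Kif20a shares 1271 bases with Cdc23, Ncapg 769 with Lcorl, Kif4 753 with Pdzd11, Prc1 670 with Rccd1 and Ube2c 592 with Tnnc2. Counts of these genes are uncertain to that extent, since no source used here gives the strand setting of the counting.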

How the data were processed

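Read counts per gene symbol were deposited by the authors as whole numbers with no normalization. Per the submitters' processing notes, TopHat2 2.0.1, HTSeq 0.6.1, cutadapt 1.9.1 and DESeq2 were used with mm10. Annotation, strand setting and handling of multi-mapping reads: not given in the sources used here. CPM used the library total. Groups were compared in R 4.3.3 with edgeR 4.0.16 (filterByExpr by group, TMM factors, robust quasi-likelihood test, Benjamini-Hochberg adjustment over 13203 genes). The SE is the log2 fold change divided by the square root of F. Alternatives used DESeq2 1.42.0, limma 3.58.1, other factors and filters, each library left out, SCC 2 and SCC 5 alone, and background subtraction. The background is the count rate per coding kb over 1424 chemosensory receptor genes, with genes above the 98th percentile set to it, times exon length (GENCODE M21, GRCm38; 24027 genes matched, 394 left as counted).

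The test was checked on simulated data. The genes, lists and rules were chosen with earlier results of these data known. By the rule for named genes, library values are given for Mki67, Top2a and, in each role, the 2 genes of smallest and the 1 of largest p, and 2 genes of smallest p are named in each further list. Other genes of the set are named by fold or range, and their library values where shown were chosen after the values were seen.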

Additional observations from a re-analysis of the deposited data

Results flagged for a closer look

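In each of 88 sets of 5 libraries (44 genes, 2 groups) the gap between an extreme library and its neighbour was compared with the whole range on the log2(CPM + 1) scale, and 10 sets passed the 95% critical value of 0.71, where chance alone flags about 1 in 20. Among SCC libraries, SCC 5 stood high for Ccna2 (49.4 CPM) and Cenpe (102 CPM), SCC 2 stood low for Plk1 (7.04 CPM), and SCC 1 stood low for Kif23 (11.3 CPM). Among normal libraries, normal 2 stood high for Mybl2 (24.6 CPM, 36 counts), normal 3 for Smc4 (70.1 CPM) and Ttk (1.03 CPM, 7 counts, the other normal libraries having no count), normal 5 for Cdk1 (6.86 CPM) and normal 1 for Mad2l1 (2.86 CPM). Normal 5 stood low for Bub1b, with 0 counts.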

How the results depend on the processing

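No setting called a mitotic gene lower in SCC, among 23 alternatives. The count called higher (24) was 13 with SCC 2 and SCC 5 alone, 11 with the background subtracted, and 14 to 27 when 1 library was left out, the lowest being without SCC 5. Alternatives chosen after seeing the data gave 15 with the background by coding length subtracted, 10 with SCC 2 and SCC 5 alone after subtraction, and 10 with SCC 1, SCC 3 and SCC 4 alone after subtraction. The median of 2.20 over the tested genes stayed between 1.79 and 2.47 when 1 library was left out, and was 2.06 over the 44 genes with no filter. Aurkb, Cenpe, Cenpf, Hmmr and Prc1 were called in all 23 alternatives. Calls of genes in the set, 24 in all, were lost in 111 of 536 values and reversed in 1.

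All genes called higher (1645) were 5470 with no filter, 3551 with a filter of 1 CPM in 5 libraries, 6378 with DESeq2, 3257 with limma-voom, 592 with SCC 2 and SCC 5 alone, 923 with the background subtracted, 541 with both of these, 3841 with SCC 1, SCC 3 and SCC 4 alone, and 1304 to 2207 when 1 library was left out. All genes called lower (1146) were 2072 with no filter, 2766 with limma-voom, 738 with SCC 2 and SCC 5 alone, 725 with that and subtraction, 2927 with SCC 1, SCC 3 and SCC 4 alone, 2360 with these after subtraction, and 1009 to 1473 when 1 library was left out. Upper-quartile factors moved the median of all genes by 0.19 and the share of calls that were higher from 58.9% to 68.6%. The cause of these shifts was not tested.

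The direction turned for Smc2 after subtraction (-0.020, and -0.87 with SCC 1, SCC 3 and SCC 4), for Smc4 with SCC 2 and SCC 5 alone (0.39, and 0.46 after subtraction) and without normal 3 (0.016, the range with 1 library left out being -0.67 to 0.016), and for Bub1b (-0.28) and Aspm (-0.39) with SCC 1, SCC 3 and SCC 4 after subtraction. The groups came from different animals, untreated or given NTCU, so there were no pairs to analyse. At totals of 1004105 to 6817106 counts many of these genes had few counts in a library, and intervals and floors cover counting error only.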

Other observations

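Mki67 took 14.9%, 14.6%, 18.5%, 11.5% and 14.8% of the summed CPM of the 44 genes across normal 1 to 5, whereas it took 17.4%, 11.1%, 10.7% and 19.3% across SCC 2 to 5. In SCC 1 its share was 3.43%, in a library where Hmmr, Prc1, Cenpf and Mybl2 stood at 101, 94.3, 82.0 and 78.2 CPM. In SCC 4 the passenger complex genes Aurkb and Incenp had 22 and 43 counts and Cdca8 had 1. Nek2 had 43 and 27 counts in SCC 3 and SCC 4, and 16 or fewer in the other SCC libraries. These genes were singled out after their values were seen, and no explanation was tested.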
